A study of Mus musculus with 4 samples.

Results

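The 8 genes described here encode the surface proteins by which mouse hematopoietic stem and progenitor cells are sorted and subdivided. They are Ly6a (Sca-1) and Kit, which define the LSK gate together with the lack of lineage antigens, and Cd34, Slamf1 (CD150), Cd48, Procr (EPCR), Thy1 (CD90) and Ptprc (CD45), which divide that gate or mark blood cells as a whole. They were chosen by symbol, with earlier results of these data known. They account for 8 of the 13749 gene symbols and 15 of the 18691 RefSeq transcript rows of the deposited table. RNA was sequenced from LSK cells sorted from C57BL/6 mice aged 8 weeks, of which 8 were heterozygous for the frameshift allele Asxl1G643fs/+ (KI) and 8 were Asxl1+/+ (WT). There were 2 KI libraries, KI-1 and KI-2, and 2 WT libraries, WT-1 and WT-2. The labels do not say whether the libraries of a genotype came from separate animals or from pools, so each p-value speaks only of how far these libraries spread, and that spread may be technical. Both genotypes went through the same LSK sort, and the labels name the tissue as hematopoietic stem cell although the LSK gate also holds multipotent progenitors.

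Stem cells with long-term repopulating activity are commonly enriched within the gate as cells that carry CD150 and EPCR but little CD34 and no CD48. Multipotent progenitors gain CD34 and then CD48 as they lose that activity. KIT is the receptor for stem cell factor, Sca-1, CD48 and Thy-1 are held in the membrane by a glycolipid (GPI) anchor, and CD45 is a tyrosine phosphatase found on nearly all nucleated blood cells. Because the cells were sorted on Sca-1 and KIT protein, the RNA levels of Ly6a and Kit describe cells already selected for the products of these genes.

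All levels are the authors' FPKM (fragments scaled to transcript length and to the number of mapped fragments), summed here over the transcripts of a gene. FPKM is a level per length, so levels can be set beside each other between genes. The listed FPKM summed to between 324255 and 411542 per library, and the sequencing depth is unknown. Asxl1 stood at 22.2 and 19.1 FPKM in KI-1 and KI-2, against 20.8 and 18.8 in WT-1 and WT-2. This level does not read the allele, so it checks no label. The libraries numbered 2 stood above those numbered 1 by a median of 0.27 in log2(FPKM + 1) over the tested genes, so each comparison of KI with WT is also given within a library number. The labels do not say what the numbers stand for.

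In level, Cd34 led the 8 genes and Slamf1 came last. Cd34 had the 116th highest mean of 11083 tested genes, those with a mean of at least 1 FPKM, and all 8 marker genes passed that limit. Kit stood at the 94.6th percentile of the tested genes, Ptprc at the 90.3rd, Cd48 at the 87.5th, Ly6a at the 80.1st, Procr at the 70.7th, Thy1 at the 33.1st and Slamf1 at the 19.0th. This order held in each of the 4 libraries. The ranges over the 4 libraries overlapped only for Ly6a, from 20.7 to 41.9 FPKM, and its lower neighbour Procr, from 14.7 to 31.9 FPKM. The genes lie in GENCODE M21 (GRCm38) at chr1:194938819-194961279 (Cd34, plus strand), chr5:75574916-75656722 (Kit, plus), chr1:138062861-138175708 (Ptprc, minus) and chr1:171682009-171705258 (Cd48, plus). Ly6a lies at chr15:74994877-74998031 (minus), Procr at chr2:155751117-155755471 (plus), Thy1 at chr9:44043384-44048579 (plus) and Slamf1 at chr1:171767127-171801184 (plus).

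**Figure D1:**
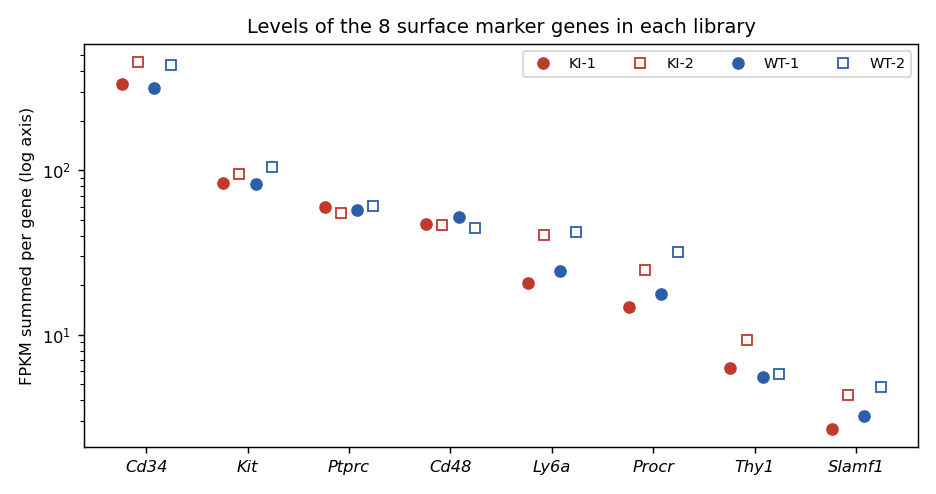
FPKM summed per gene (log axis) for the 8 surface marker genes in each of the 4 libraries, KI in red and WT in blue, with filled circles for the libraries numbered 1 and open squares for those numbered 2. Ly6a, Procr and Slamf1 separate by library number more than by genotype, and Thy1 is the gene whose KI points both lie above both WT points.

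In FPKM, neither sort marker differed between KI and WT beyond the spread between libraries. Ly6a stood at 20.7 and 40.4 FPKM in KI-1 and KI-2, against 24.3 and 41.9 FPKM in WT-1 and WT-2. KI was 0.852 of WT within number 1 and 0.964 of WT within number 2, while the libraries numbered 2 were 1.95-fold (KI) and 1.72-fold (WT) above those numbered 1. The log2 fold change of KI over WT on the log2(FPKM + 1) scale was -0.14 with SE 0.40. For this and the other 7 marker genes limma gave an adjusted p of 1 after rounding (Benjamini-Hochberg over all tested genes). Kit stood at 83.2 and 95.3 FPKM in KI-1 and KI-2, against 81.9 and 105 FPKM in WT-1 and WT-2, and its log2 fold change was -0.060 with SE 0.24. The groups overlapped for both genes, and the sign for Kit differed between the library numbers. The 95% interval of the difference reached from -1.11 to 0.84 for Ly6a and from -0.65 to 0.53 for Kit, so changes of these sizes lie within the error. Without WT-2 the log2 fold change was 0.24 for Ly6a and 0.12 for Kit, and without KI-1 it was 0.33 for Ly6a and 0.036 for Kit. Leaving out either library thus turned the sign of both. These fits are unbalanced in library number, and both genes stood higher in number 2 in each genotype, so the turned signs carry that shift. Ly6a lies in a cluster of related genes on chromosome 15, and 91 of the 906 stretches of 50 bases in its GENCODE transcript also occur in transcripts of other genes, so reads can be split between copies. None of the other 7 marker genes shared such a stretch.

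The genes that mark the stem cell end of the gate were lower in KI within each library number. The amounts were smaller than the FPKM spread between the 2 libraries of a genotype. Procr, the receptor for activated protein C, stood at 14.7 and 24.9 FPKM in KI-1 and KI-2, against 17.7 and 31.9 FPKM in WT-1 and WT-2. KI was 0.834 of WT within number 1 and 0.779 of WT within number 2, with a log2 fold change of -0.30 and SE 0.37. Slamf1, a receptor of the SLAM family that binds itself on neighbouring cells, stood at 2.70 and 4.33 FPKM in KI-1 and KI-2, against 3.21 and 4.83 FPKM in WT-1 and WT-2. Here KI was 0.839 of WT within number 1 and 0.896 of WT within number 2, and the log2 fold change was -0.16 with SE 0.31. For both genes KI-2 stood above WT-1, so the groups overlapped. Without WT-2 the log2 fold change was 0.11 for Procr and 0.075 for Slamf1, and without KI-1 it was 0.062 for Procr and 0.10 for Slamf1. These fits are unbalanced in library number, and both genes stood higher in number 2 in each genotype. The turned signs thus carry the shift between the numbers, while within each number KI stayed below WT. In bulk RNA, fewer cells of a type and less RNA per cell cannot be told apart.

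The genes of the progenitor end did not share a direction. Cd34, which encodes a sialomucin, stood at 332 and 452 FPKM in KI-1 and KI-2, against 316 and 434 FPKM in WT-1 and WT-2. It was 5.18% and 4.14% higher in KI within the numbers, with a log2 fold change of 0.065 and SE 0.32. Cd48, whose product binds the receptor CD244, stood at 47.4 and 46.5 FPKM in KI-1 and KI-2, against 52.1 and 44.5 FPKM in WT-1 and WT-2. Its log2 fold change was -0.035 (SE 0.21). The 2 KI values of Cd48 lay between the 2 WT values, and the 95% interval of its difference ran from -0.55 to 0.48. Leaving out WT-1 turned the sign of both genes, to -0.16 for Cd34 and 0.076 for Cd48, and leaving out KI-2 gave -0.16 for Cd34. These fits too are unbalanced in library number, so their signs carry the shift between the numbers. Cd34 overlaps on the opposite strand with Gm16897, a predicted gene, by up to 148 bases of an exon, and Gm16897 was low, at 6.22 and 2.86 FPKM in KI-1 and KI-2 against 6.19 and 2.94 FPKM in WT-1 and WT-2. The sources used here do not say whether the libraries kept strand.

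Thy1, which encodes a small GPI-anchored protein found on stem cells and T cells, was the marker gene whose groups did not overlap. It stood at 6.27 and 9.33 FPKM in KI-1 and KI-2, against 5.57 and 5.77 FPKM in WT-1 and WT-2. KI was 12.5% above WT within number 1 and 61.8% above it within number 2, so most of the difference came from KI-2. The log2 fold change was 0.38 with SE 0.26, and without KI replicate 2 it was 0.12. Ptprc stood at 59.8 and 54.7 FPKM in KI-1 and KI-2, against 57.7 and 60.3 FPKM in WT-1 and WT-2, with a log2 fold change of -0.042 and SE 0.21, which was 0.020 without KI-2. The T cell receptor complex genes Cd3d and Cd3g stood between 0.0404 and 0.341 FPKM in all 4 libraries. Cd4, another T cell gene that some other blood cells also express, stood at 1.35 and 1.57 FPKM in KI-1 and KI-2, against 0.903 and 1.08 FPKM in WT-1 and WT-2. It too stood above WT without overlap, as did 6.39% of tested genes. The part of T cells in the Thy1 values was not tested.

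Of the 8 marker genes, 0 passed limma's adjusted p of 0.05, as did 0 of the 11083 tested genes (0%). In this fit, with genotype as the only term, 0 marker genes and 47 tested genes (0.424%) had an unadjusted p under 0.05. Exact two-sided permutation tests over the 4 libraries gave p = 0.333 for Thy1, the smallest that 2 against 2 libraries allow, and between 0.667 and 1 for the other 7. KI was below WT in both library numbers for 3 marker genes, Procr, Slamf1 and Ly6a, where 25.5% of tested genes were, and above WT in both for 2, Cd34 and Thy1, where 28.7% were. The remaining 3, Kit, Ptprc and Cd48, had opposite signs. These counts stand close to the background. The groups did not overlap with KI above for 1 marker gene (6.39% of tested genes) and with KI below for 0 (7.06%). The median log2 fold change was -0.051 over the 8 marker genes and 0.0075 over all tested genes.

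**Figure D2:**
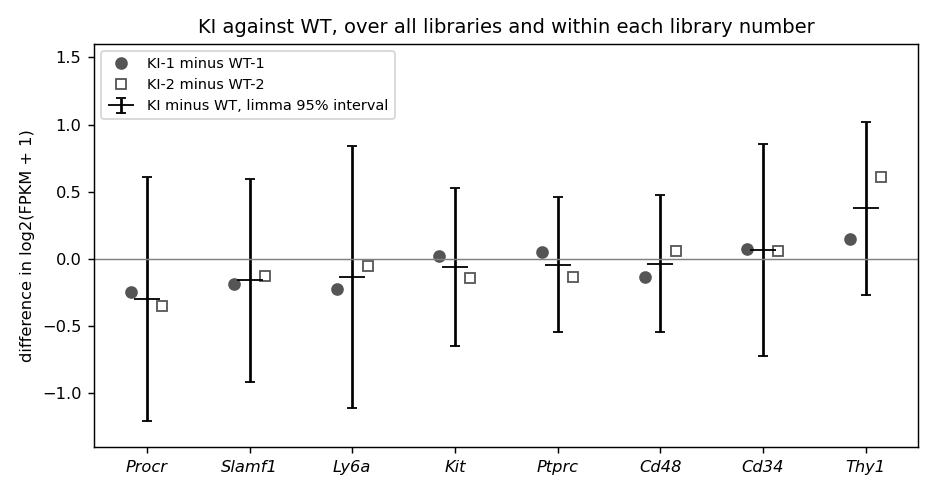
Difference of KI minus WT in log2(FPKM + 1) for each marker gene, with limma's estimate and 95% interval over all 4 libraries (bars) and the differences within library number 1 (filled circles) and number 2 (open squares). Every interval includes 0, and every point within a library number lies inside the interval.

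In log2(FPKM + 1), 6 of the 8 marker genes differed more between the library numbers than between the genotypes, and Thy1 and Ptprc did not. The authors' log2 values, given below, held no such shared shift for any marker gene row. In both genotypes 6 of the 8 stood higher in the libraries numbered 2, where 69.1% of tested genes did, and 1, Cd48, stood lower, where 15.1% did. Procr was 1.69-fold (KI) and 1.81-fold (WT) higher in number 2. Cd34 was 1.36-fold and 1.37-fold higher in number 2. Cd48 stood at 0.981 (KI) and 0.855 (WT) of its level in number 1. Immediate early and stress genes, which cells are known to switch on within minutes of a stimulus, stood the other way. Their summed FPKM was 5396 and 3817 in KI-1 and KI-2, against 10350 and 3797 in WT-1 and WT-2. Of 18 such genes 1 was higher and 9 were lower in number 2 in both genotypes. Their part in the marker gene values was not tested.

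Ratios within a library do not depend on its scale, and 8 pairs of marker genes were compared in this way, without a test. The ratio of Procr to Cd34 was 0.0443 and 0.0550 in KI-1 and KI-2, against 0.0559 and 0.0736 in WT-1 and WT-2. The ratio of Slamf1 to Cd34 was 0.00812 and 0.00958 in KI-1 and KI-2, against 0.0102 and 0.0111 in WT-1 and WT-2. For both ratios both KI values lay below both WT values, as they did for 15.2% of tested genes set over Cd34. The ratio of Procr to Cd48 was 0.310 and 0.535 in KI-1 and KI-2, against 0.339 and 0.717 in WT-1 and WT-2, and that of Slamf1 to Cd48 was 0.0569 and 0.0930, against 0.0617 and 0.108. These were lower in KI within each number, but the groups overlapped, while 3.84% of tested genes set over Cd48 did not overlap with KI below. The ratio of Procr to Slamf1, both at the stem cell end, was 5.46 and 5.75 in KI-1 and KI-2, against 5.49 and 6.61 in WT-1 and WT-2. That of Kit to Ly6a was 4.02 and 2.36 in KI-1 and KI-2, against 3.37 and 2.52 in WT-1 and WT-2, with opposite signs in the 2 numbers. The ratio of Cd48 to Cd34 was 0.143 and 0.103 in KI-1 and KI-2, against 0.165 and 0.103 in WT-1 and WT-2, and overlapped. That of Thy1 to Ptprc was 0.105 and 0.170 in KI-1 and KI-2, against 0.0966 and 0.0957 in WT-1 and WT-2, with both KI values above both WT values. How many tested genes set over Ptprc do the same was not counted, so this ratio has no background beside it.

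Slamf1 and Cd48 are paralogs and neighbours on chromosome 1, with 61868 bases between them in GENCODE M21 (GRCm38), and each has its own start site. The 250 bases before the start site in the RefSeq table for GRCm38.p6, which held 6 of the 8 marker genes (Ly6a and Thy1 had no entry), are shown for these 2 because Slamf1 stood higher and Cd48 lower in the libraries numbered 2. Capitals mark matches, on either strand, to GATAA (GATA factors), GGAAG (ETS factors), TGTGGT (RUNX factors) and CANNTG (E-box). In the Cd48 window the TGTGGT and CANNTG matches overlap.
Slamf1, chr1:171766882-171767131, plus strand: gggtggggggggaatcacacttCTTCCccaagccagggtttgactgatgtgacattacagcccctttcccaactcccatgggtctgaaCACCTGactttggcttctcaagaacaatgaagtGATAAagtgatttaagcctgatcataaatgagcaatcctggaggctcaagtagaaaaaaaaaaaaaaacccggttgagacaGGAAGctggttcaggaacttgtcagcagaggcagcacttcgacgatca
Cd48, chr1:171681742-171681991, plus strand: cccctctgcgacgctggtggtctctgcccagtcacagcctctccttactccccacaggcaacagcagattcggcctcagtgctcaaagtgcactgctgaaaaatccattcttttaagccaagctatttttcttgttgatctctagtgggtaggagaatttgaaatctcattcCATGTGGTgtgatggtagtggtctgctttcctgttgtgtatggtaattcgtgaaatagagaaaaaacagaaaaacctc
The Slamf1 window held 1 GATAA, 2 GGAAG and 1 CANNTG match, and the Cd48 window 1 TGTGGT and 1 CANNTG match. Of 32851 windows of this length in the table, 22.6% held GATAA, 64.1% GGAAG, 14.05% TGTGGT and 66.2% CANNTG, so each match is common and describes letters only.

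Kit, Cd34, Ptprc and Ly6a had more than 1 transcript row, and their values depend on how the authors' quantification divided the reads between forms. Kit had 2 forms whose coding sequences differ in GENCODE M21 by 12 bases at the end of exon 9 (chr5:75639147-75639158, plus strand), in the stretch that encodes the outer part of the receptor next to the membrane. The coding sequence has 2937 bases in NM_001122733 and 2925 in NM_021099, while the whole transcripts, with 5214 and 5241 bases, also differ outside it. The 12 bases are in capitals in the form with the longer coding sequence, and the other form joins the same flanks directly.
Kit NM_001122733: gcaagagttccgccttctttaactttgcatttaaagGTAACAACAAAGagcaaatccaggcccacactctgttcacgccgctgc
Kit NM_021099: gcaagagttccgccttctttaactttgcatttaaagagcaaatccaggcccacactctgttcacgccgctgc
NM_021099, without the 12 bases, was the more abundant in every library. NM_001122733 held 31.7% and 26.5% of Kit FPKM in KI-1 and KI-2, against 23.5% and 30.4% in WT-1 and WT-2, and the groups overlapped. In FPKM it stood at 26.4 and 25.3 in KI-1 and KI-2, against 19.3 and 32.0 in WT-1 and WT-2.

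Cd34 had 2 forms that differ in where the last exon begins. The form NM_001111059 starts that exon 156 bases earlier, reads 12 more coding bases and meets a stop codon, while NM_133654 reads 183 coding bases there. The earlier start thus cuts short the part of the protein inside the cell. The junctions are shown with the 36 bases before them and 30 bases after them, and capitals mark the 12 coding bases and the stop codon of the short-tailed form.
Cd34 NM_001111059: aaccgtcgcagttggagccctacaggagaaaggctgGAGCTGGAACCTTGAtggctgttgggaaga
Cd34 NM_133654: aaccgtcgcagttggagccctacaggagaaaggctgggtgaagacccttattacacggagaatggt
The short-tailed form held 43.0% and 43.5% of Cd34 FPKM in KI-1 and KI-2, against 51.5% and 42.0% in WT-1 and WT-2. Both forms were thus abundant in all 4 libraries, and WT-1 stood apart from the other 3. The full-tailed form stood at 189 and 255 FPKM in KI-1 and KI-2, against 153 and 252 FPKM in WT-1 and WT-2.

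Ptprc had 3 forms, which differ in the exons for the outer end of CD45. NM_001111316 holds exons 4, 5 and 6, whose products are the A, B and C segments recognised by isoform-specific antibodies, and exon 7. NM_011210 lacks exons 4 to 6, the pattern known as CD45RO, and NM_001268286 lacks exon 7 as well. Exons 4 and 7 are shown because they set these forms apart; they have 129 and 72 bases on the minus strand of chromosome 1.
Ptprc exon 4, chr1:138122456-138122584: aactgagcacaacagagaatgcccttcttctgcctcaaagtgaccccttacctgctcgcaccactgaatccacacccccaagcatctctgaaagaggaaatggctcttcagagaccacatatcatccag
Ptprc exon 7, chr1:138116954-138117025: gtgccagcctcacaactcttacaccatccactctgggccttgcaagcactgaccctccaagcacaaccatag
The form without exons 4 to 6 dominated, with 91.1% and 86.2% of Ptprc FPKM in KI-1 and KI-2, against 89.6% and 90.6% in WT-1 and WT-2. The form with all of these exons held 6.15% and 10.5% in KI-1 and KI-2, against 10.4% and 8.12% in WT-1 and WT-2, so the groups overlapped. The form that also lacks exon 7 stood at 1.62 and 1.82 FPKM in KI-1 and KI-2, against 0.000625 and 0.745 FPKM in WT-1 and WT-2. Its groups did not overlap, and in the authors' deposited table it had an unadjusted p of 0.0274 and an adjusted p of 0.180. In the authors' deposited table, 11.1% of all rows had an unadjusted p under 0.05 with KI above. These values are low, near 0 in WT-1.

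Ly6a had 4 rows, all paired with a single GENCODE transcript, so the structures behind them cannot be told apart here. NM_001271419 dominated, at 16.8 and 30.2 FPKM in KI-1 and KI-2, against 21.9 and 34.1 FPKM in WT-1 and WT-2. NM_001271417 was listed at 2e-06 FPKM in WT-1 and between 2.02 and 3.25 FPKM in the other 3 libraries. NM_001271446 was at or below 6e-06 FPKM in all 4 libraries.

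**Figure D3:**
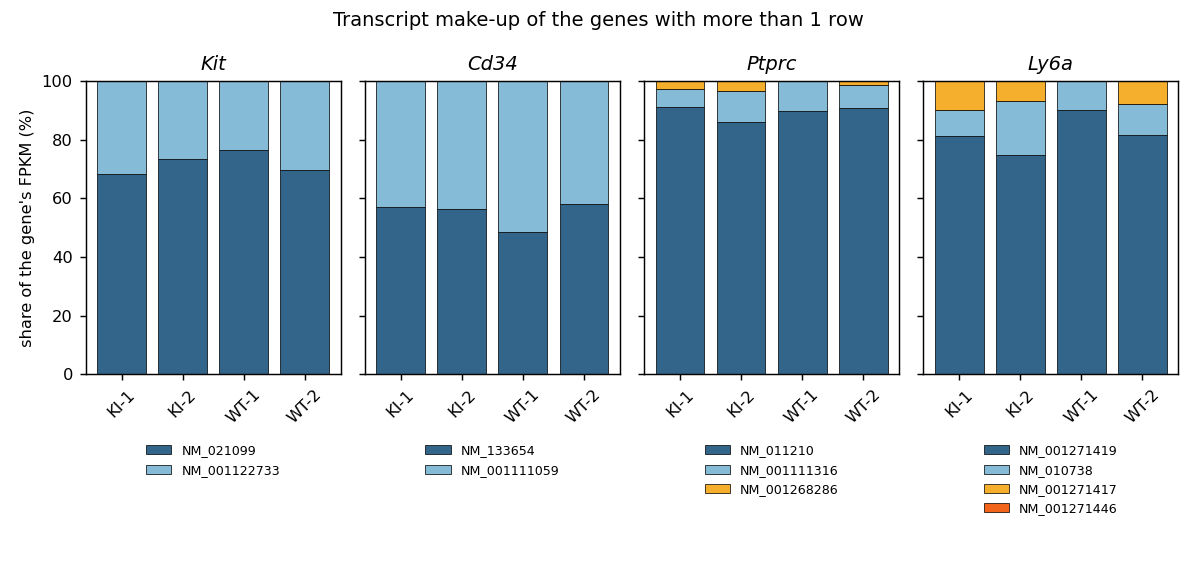
Share of each gene's FPKM (%) held by each RefSeq transcript row of Kit, Cd34, Ptprc and Ly6a, stacked per library with KI left of WT. The same form leads in every library for Kit, Ptprc and Ly6a, while for Cd34 the short-tailed form NM_001111059 leads in WT-1 with 51.5% and trails in the other 3 libraries.

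The authors also deposited normalized log2 values with a test per transcript. Slamf1 stood at 2.16 and 2.19 in KI-1 and KI-2, against 2.30 and 2.28 in WT-1 and WT-2, on the log2 scale of the authors' deposited table. In the authors' deposited table, 5 of the 15 marker gene rows had an unadjusted p under 0.05, 4 with KI below and 1 with KI above, beside 21.6% of all 18691 rows, 10.5% with KI below and 11.1% with KI above. The smallest in the authors' deposited table was that of the Kit form NM_021099, with an unadjusted p of 0.00225, an adjusted p of 0.116 and a signed fold of -1.06. Slamf1 had a signed fold of -1.08 (p = 0.0177 in the authors' deposited table), Procr -1.18 (p = 0.0293) and the Ly6a row NM_001271419 -1.16 (p = 0.0199). The authors' deposited table gave an adjusted p of at least 0.116 to all 15 rows. On the same log2 scale, Procr stood at 4.39 and 4.34 in KI-1 and KI-2, against 4.57 and 4.63 in WT-1 and WT-2. The Ly6a row NM_001271419 stood at 4.56 and 4.61 in KI, against 4.81 and 4.78 in WT. The Kit form NM_021099 stood at 6.004 and 6.008 in KI, against 6.090 and 6.087 in WT. For Slamf1 and these rows the spread between libraries of 1 genotype was smaller than in log2(FPKM + 1). From number 1 to number 2 all 15 marker gene rows moved opposite ways in KI and WT by similar amounts, so no shared shift widened the spread. Thy1, for example, stood at 2.98 and 3.16 in KI-1 and KI-2, against 2.87 and 2.69 in WT-1 and WT-2. The mirrored moves are thus not particular to the rows with a small p, and how the deposited values were computed is not stated. A test that takes such mirrored values as independent would give p-values that are too small.

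Other surface genes of stem cells were more often below WT than above it. Of 19 tested genes of that list, 0 passed limma's adjusted p in either direction, 8 were lower in KI in both library numbers, where 25.5% of tested genes were, and 1 was higher in both. Their median log2 fold change was -0.029, against 0.0075 over all tested genes. Esam, an adhesion molecule of stem cells and endothelium, stood at 9.59 and 18.9 FPKM in KI-1 and KI-2, against 11.7 and 21.2 FPKM in WT-1 and WT-2. Pecam1, an adhesion molecule shared with endothelium, stood at 40.001 and 43.1 FPKM in KI-1 and KI-2, against 43.1 and 49.6 FPKM in WT-1 and WT-2. Esam and Pecam1 were thus below WT within each number, with groups that overlapped. Of the 19 genes, 18 stood higher in number 2 in both genotypes, where 69.1% of tested genes did.

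Surface genes of multipotent and lymphoid-primed progenitors, 11 tested, included 0 that passed limma's adjusted p, 0 lower in KI in both numbers and 2 higher in both, with a median log2 fold change of 0.0036. Il7r, the interleukin-7 receptor, stood at 3.75 and 6.22 FPKM in KI-1 and KI-2, against 2.81 and 3.74 FPKM in WT-1 and WT-2. Flt3, the cytokine receptor that marks multipotent progenitors, stood at 160 and 163 FPKM in KI-1 and KI-2, against 159 and 201 FPKM in WT-1 and WT-2.

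Surface genes of committed progenitors, which the gate should leave out, were more often above WT than below it. Of 11 tested, 0 passed limma's adjusted p, 6 were higher in KI in both library numbers, where 28.7% of tested genes were, and 2 were lower. Their median log2 fold change was 0.26, and their summed FPKM was 239 and 224 in KI-1 and KI-2, against 191 and 215 in WT-1 and WT-2. The groups did not overlap with KI above for 3 of the 11 (6.39% of tested genes) and with KI below for 2 (7.06%). Those 2 are not named, as genes were named by smallest p. Csf1r, which encodes a cytokine receptor of the monocyte lineage, stood at 11.04 and 7.50 FPKM in KI-1 and KI-2, against 3.53 and 4.58 FPKM in WT-1 and WT-2, without overlap (limma unadjusted p = 0.0109). Fcgr2b, an inhibitory Fc receptor, stood at 12.9 and 8.96 FPKM in KI-1 and KI-2, against 9.48 and 6.62 FPKM in WT-1 and WT-2. Fcgr3, whose product with that of Fcgr2b is used to split myeloid progenitors, stood at 1.84 and 1.11 FPKM in KI-1 and KI-2, against 0.740 and 0.819 FPKM in WT-1 and WT-2. The part of such cells in the marker gene values was not tested.

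Lineage antigens and mature cell genes were mostly low. Of 22 symbols written, 16 were in the table, 7 had a mean of at least 1 FPKM, and 0 of these passed limma's adjusted p, with 4 higher in KI in both numbers and 0 lower. Their summed FPKM was 52.3 and 102 in KI-1 and KI-2, against 43.7 and 71.6 in WT-1 and WT-2. Itgam, which encodes the lineage antigen CD11b, stood at 20.7 and 20.1 FPKM in KI-1 and KI-2, against 15.9 and 16.3 FPKM in WT-1 and WT-2. It was among 3 of the 7 genes whose groups did not overlap with KI above (6.39% of tested genes), and 0 did so with KI below (7.06%). Cd79a, a B cell receptor component, stood at 9.23 and 40.6 FPKM in KI-1 and KI-2, against 9.59 and 19.0 FPKM in WT-1 and WT-2. The macrophage gene Emr1 stood at or below 0.0954 FPKM and the erythroid gene Rhag at or below 0.714 FPKM in all 4 libraries. The part of mature cells in the marker gene values was not tested.

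Several relatives of Ly6a stood above WT where Ly6a itself stood below it. The list of the Ly6 and uPAR family also named Thy1, which is described above and left out of these counts. Besides Ly6a and Thy1, 7 genes were tested and 0 passed limma's adjusted p, while 5 were higher in KI in both numbers and 1 was lower. Their median log2 fold change was 0.93. Ly6c1, in the same cluster as Ly6a, stood at 3.61 and 7.82 FPKM in KI-1 and KI-2, against 0.911 and 3.34 FPKM in WT-1 and WT-2. Ly6c2, a monocyte marker, stood at 44.3 and 26.0 FPKM in KI-1 and KI-2, against 7.01 and 18.4 FPKM in WT-1 and WT-2. Ly6d, a marker of early B-lineage cells, stood at 5.37 and 10.4 FPKM in KI-1 and KI-2, against 1.44 and 4.88 FPKM in WT-1 and WT-2. Plaur, the urokinase receptor, stood at 20.4 and 32.1 FPKM in KI-1 and KI-2, against 10.4 and 16.0 FPKM in WT-1 and WT-2. For these 4 of the 7 genes the groups did not overlap with KI above (6.39% of tested genes), with unadjusted p between 0.0195 and 0.0594 (limma, adjusted p = 1 after rounding), and all 4 were named for having the smallest p in the list. Ly6e, the most abundant of the family, stood at 233 and 325 FPKM in KI-1 and KI-2, against 226 and 322 FPKM in WT-1 and WT-2. Lypd6b did not overlap with KI below (7.06% of tested genes), at 0.566 and 1.05 FPKM in KI-1 and KI-2, against 1.11 and 1.78 FPKM in WT-1 and WT-2. Ly6e and Lypd6b were named after their values were seen.

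**Figure D4:**
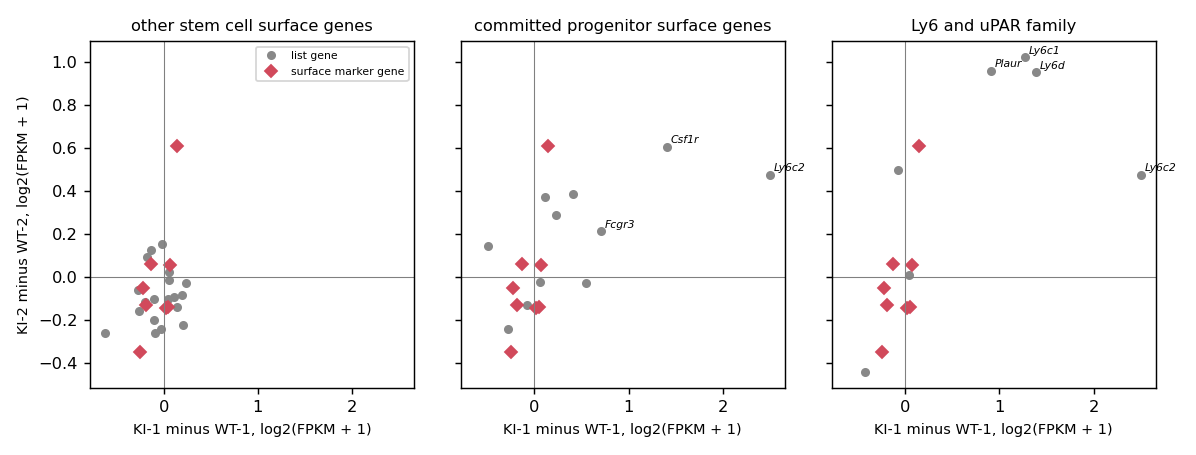
Differences of KI minus WT in log2(FPKM + 1) within library number 1 (x axis) and number 2 (y axis) for the tested genes of 3 lists (grey circles), with the 8 surface marker genes repeated in each panel (red diamonds). The marker genes other than Thy1 lie between -0.35 and 0.073 on both axes, while Ly6c2, Ly6c1, Ly6d, Plaur and Csf1r lie in the upper right.

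The other SLAM family genes had mixed directions. Of the 4 tested, Slamf6, Cd84, Cd244 and Ly9, 0 passed limma's adjusted p, 1 was higher and 1 lower in KI in both numbers. Cd244, the receptor for CD48, stood at 8.04 and 8.25 FPKM in KI-1 and KI-2, against 6.89 and 8.60 FPKM in WT-1 and WT-2. Cd84 stood at 18.6 and 20.3 FPKM in KI-1 and KI-2, against 20.5 and 21.0 FPKM in WT-1 and WT-2, with both KI values below both WT values (7.06% of tested genes).

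Downstream of KIT, 19 adaptor, kinase and inhibitor genes were tested, 0 passed limma's adjusted p, 5 were higher and 7 lower in KI in both numbers, and the median log2 fold change was -0.031. Cbl, a ubiquitin ligase that limits KIT signalling, stood at 15.1 and 13.3 FPKM in KI-1 and KI-2, against 10.9 and 10.9 FPKM in WT-1 and WT-2. Sh2b2, an adaptor protein gene, stood at 2.88 and 3.72 FPKM in KI-1 and KI-2, against 1.86 and 2.49 FPKM in WT-1 and WT-2. Pik3r1, the regulatory subunit of phosphoinositide 3-kinase, stood at 28.7 and 32.7 FPKM in KI-1 and KI-2, against 35.0 and 38.4 FPKM in WT-1 and WT-2. Fyn, a kinase of the SRC family, stood at 25.7 and 27.6 FPKM in KI-1 and KI-2, against 30.2 and 30.8 FPKM in WT-1 and WT-2. Of the 19 genes the groups did not overlap for these 4, with KI above for 2 (6.39% of tested genes) and KI below for 2 (7.06%). Among 13 transcription factors that act on Kit and other stem cell genes, 0 passed limma's adjusted p, 8 were lower and 2 higher in KI in both numbers, with a median log2 fold change of -0.13. Gata2 stood at 51.0 and 69.5 FPKM in KI-1 and KI-2, against 74.4 and 71.5 FPKM in WT-1 and WT-2, and Meis1 at 73.7 and 78.4 FPKM in KI-1 and KI-2, against 84.8 and 89.2 FPKM in WT-1 and WT-2.

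Partners of the other marker genes were also compared. Of 11 CD45 substrates and partners, 0 passed limma's adjusted p, with 3 higher and 3 lower in KI in both numbers; Lgals1, which encodes a galectin that binds CD45, stood at 47.2 and 70.1 FPKM in KI-1 and KI-2, against 33.8 and 46.0 FPKM in WT-1 and WT-2. Of 6 genes of the protein C pathway, 0 passed, with 3 higher and 0 lower in both numbers; F2r, the thrombin receptor, stood at 21.7 and 25.2 FPKM in KI-1 and KI-2, against 33.8 and 23.4 FPKM in WT-1 and WT-2. Of 8 genes of the CD34 family, its ligands and their glycosylation, 0 passed, with 1 higher and 2 lower in both numbers. Of 26 genes of GPI anchor synthesis, on which Sca-1, CD48 and Thy-1 depend to reach the surface, 0 passed, with 4 higher and 8 lower in both numbers and a median log2 fold change of -0.071. Pigl, which removes an acetyl group early in that synthesis, stood at 2.71 and 4.32 FPKM in KI-1 and KI-2, against 5.31 and 5.43 FPKM in WT-1 and WT-2.

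The likeness of other genes was measured as the root mean square difference over the 4 libraries in log2(FPKM + 1), after each gene was centred on its own mean. For Thy1 the closest were Bpifc, at 0.0408, and Asns, at 0.0444, and 43 genes (0.388%) lay within 0.1. For Procr they were Acyp1, at 0.0268, and 3110062M04Rik, at 0.0289, with 119 genes (1.07%) within 0.1. For Ly6a they were Smpd1, at 0.0164, and Fkbp8, at 0.0179, with 269 genes (2.43%) within 0.1. The closest to Cd48 was 9330020H09Rik, to Ptprc Zmym4, to Kit Arhgef18 and to Cd34 Rbm4, and 971 to 2278 genes lay within 0.1 of each of these 4 and 1191 within 0.1 of Slamf1, so these patterns were common. Among the marker genes themselves the closest pairs were Ptprc and Cd48, at 0.106, and Ly6a and Procr, at 0.112.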

How the data were processed

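RNA sequencing of 2 KI and 2 WT libraries of sorted LSK cells was used. The authors deposited FPKM per RefSeq transcript. The submitters' processing notes name TopHat, Cufflinks and the build mm10 (GRCm38), without versions; settings, read length and strandedness are not stated either. The lowest value was 1e-06 in the table. The authors also deposited normalized log2 values, a signed fold and other scores, and p-values. How these were computed is not stated.

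FPKM was summed per symbol. Genes with a mean of at least 1 FPKM (11083, with 2666 left out) were analysed as log2(FPKM + 1), a scale on which changes of low genes come out too small. The genotype test was fitted by limma (version 3.58.1, R 4.3.3), with genotype as the only term, a prior variance following the mean, two-sided, Benjamini-Hochberg over all genes tested, and with exact permutation tests in SciPy 1.17.1. The test was checked on simulated data with independent noise and no shift between library numbers, so that check does not cover such a shift. Depth is unknown, so no counting intervals are given.

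The marker genes and gene lists were chosen with earlier results of these data known. Genes named from a list were up to 4 with its smallest unadjusted p, besides Ly6e, Lypd6b and the cell type markers Cd3d, Cd3g, Emr1 and Rhag; some of these are not reported here. Markers of niche and stromal cells (8 of 12 in the table, 2 tested) gave 0 genes past the adjusted p. Transcript structures came from GENCODE M21 and start sites from RefSeq (GRCm38.p6). Alternatives covered scaling, pseudocount, filter, transcript choice, the authors' log2 values, the library number as a term and leaving out each library.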

Additional observations from a re-analysis of the deposited data

How the results depend on the processing

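Of the 8 marker genes, 0 passed the adjusted p under any of the 13 alternatives, with limma. Their direction was the same under every alternative that kept all 4 libraries. Among these alternatives, limma's adjusted p was smallest with the authors' log2 values. It was 0.0627 for Ly6a, 0.0701 for Procr and 0.0779 for Kit there. In those values the moves from number 1 to number 2 mirrored each other in KI and WT for every marker gene row. A fit with genotype as the only term takes the libraries as independent, so these adjusted p may be too small. The library number as a replicate block called 1 gene of 11083, not a marker gene. The deviations of WT-1 and KI-1 from their group means correlated at 0.69 across genes, but with 2 numbers and no such label the samples share only a number. Leaving out 1 library in turn called 7 to 37 genes and 0 marker genes, and gave log2 fold changes from -0.16 to 0.29 for Cd34, -0.15 to 0.076 for Cd48, -0.24 to 0.12 for Kit, -0.60 to 0.33 for Ly6a, -0.71 to 0.11 for Procr, -0.11 to 0.020 for Ptprc, -0.42 to 0.10 for Slamf1 and 0.12 to 0.63 for Thy1. These fits are unbalanced in library number, and the lone library of a genotype is assumed to vary like the other genotype. Slamf1 had no value under the filter of a mean of at least 5 FPKM. In a count added after the data were seen, 1 marker gene in place of 2 was above WT in both numbers under quantile normalization and under the authors' values, where Cd34 lost it. The count below WT in both numbers was 4 in place of 3, with Kit added, under the authors' values and under the highest transcript per symbol, and 2 under the filter that left out Slamf1.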
